A study of Mus musculus with 6 samples.

Results

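Camk2a, Shank3, Grin1 and Bdnf are 4 genes of the excitatory synapse, and the m6A peaks within their mm9 gene windows were examined in whole mouse brain. A peak was a member if its summit lay in the window of one of these genes. That gave 63 of the 90215 peaks in the 3 deposited lists. Merging peaks that shared at least 1 base gave 32 regions, of 43377 in the series. The samples were 3 libraries of polyadenylated whole-brain RNA immunoprecipitated with an m6A antibody (m6A IP 1, 2 and 3) and 3 input libraries made with no antibody. Each IP was set against 1 input by the authors. The labels give no genotype, strain, age or treatment, the run names in the file headers hold the letters ctl with no explanation, there was no second condition, and nothing states that the replicates came from separate animals. The IP libraries kept 5676427 to 6493926 tags after the authors' removal of duplicates, and the inputs 7185922 to 11589632. The lists hold peaks only, so the brain label could not be checked against marker levels, and a place without a peak has no value.

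N6-methyladenosine (m6A) is an internal mark of messenger RNA, placed by a methyltransferase complex and read by proteins that affect splicing, export, translation and decay. It is known to be frequent near stop codons and in long internal exons. Camk2a encodes the alpha subunit of calcium/calmodulin-dependent protein kinase II, and its mRNA is carried into dendrites. Shank3 encodes a scaffold of the postsynaptic density, Grin1 the obligatory GluN1 subunit of NMDA receptors, and Bdnf a secreted neurotrophin. Bdnf transcripts begin at alternative 5′ exons, each joined to a common exon that holds the coding sequence.

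The 4 genes differed in how many regions they held and in where these lay. Camk2a held 12 regions, Shank3 9, Grin1 7 and Bdnf 4, in windows of 63.5, 61.0, 28.5 and 53.0 kb. Of the 32 regions, 9 held a peak of every replicate, or 28.1%, with Wilson 95% limits of 15.6 and 45.4, against 38.6% of the regions of the series. The series share lay inside those limits, which cover counting error only and treat the regions as independent. Some regions are close neighbours and all come from the same libraries, so this is no test. Regions with a peak of every replicate are called recurrent. The 9 were 4 in Shank3, 2 each in Camk2a and Grin1, and 1 in Bdnf. A further 7 regions were found in 2 replicates, so 16 of the 32 held peaks of at least 2 replicates, against 61.2% of regions in the series. Of those 7, 5 were shared by m6A IP 1 and 2. The number of member peaks was 21, 26 and 16 in m6A IP 1, 2 and 3, in lists of 32858, 32671 and 24686 peaks. Of these peaks, 11, 10 and 12 lay in a region found in all 3 replicates, or 52.4%, 38.5% and 75%, beside 53.9%, 54.0% and 74.2% of all peaks in the same lists. Camk2a accounted for 11 of the 26 peaks of m6A IP 2.

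Position is given from the 5′ side of each window, using the strand of the gene in the GRCm38 annotation (minus for Grin1, plus for the other 3). The windows carry margins, and no exon, stop codon or UTR was placed, since the annotation at hand is of another build than the lists. Shank3 and Bdnf had their recurrent regions toward the 3′ side: every recurrent Shank3 peak had its summit at least 48.3 kb into the window, and every recurrent Bdnf peak at least 49.2 kb. Camk2a and Grin1 each had a recurrent region close to the 5′ side, with the outermost summits 0.407 and 0.456 kb into the window. Grin1 had its other recurrent region at the opposite end, and Camk2a had its other one 42.2 kb in.

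**Figure D1:**
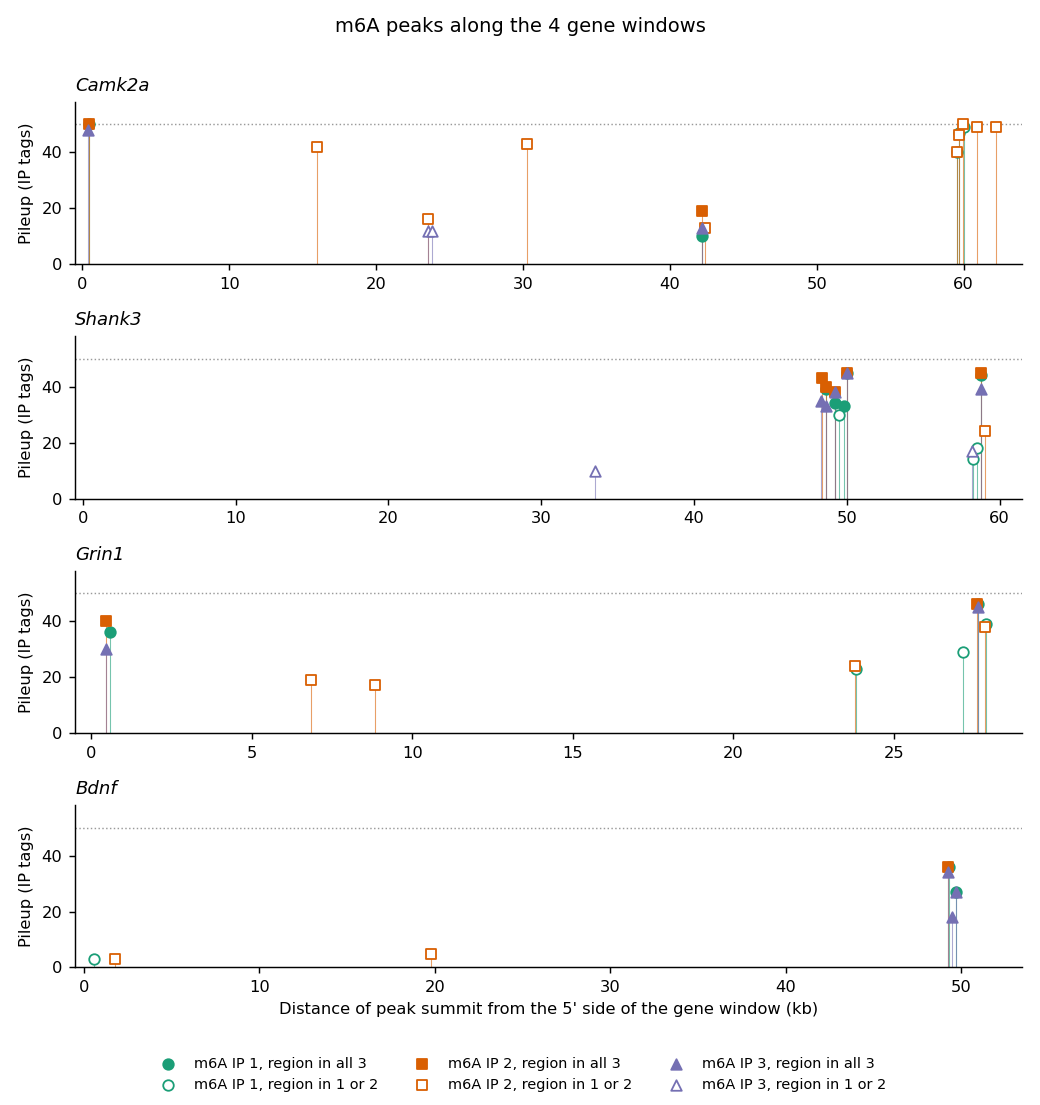
Pileup of each member peak (IP tags, vertical axis) against the distance of its summit from the 5′ side of the gene window (kb, horizontal axis), with 1 panel per gene and 1 symbol per replicate. Filled symbols belong to regions found in all 3 replicates, open ones to regions found in 1 or 2, the dotted line marks 50 tags, and equal values hide each other; Shank3 and Bdnf have filled symbols only at the right, Camk2a and Grin1 also at the far left.

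Camk2a, the kinase subunit, had the highest pileup of the 4 genes, in a region with one of the lowest folds. The pileup is the number of IP tags over the summit base, and the fold enrichment, as the authors deposited it, divides that pileup by the local input background after adding 1 to each. On chromosome 18 from 61085302 to 61085459 (mm9), m6A IP 1, 2 and 3 had pileups of 50, 50 and 48 tags. For 50 tags the exact Poisson 95% limits are 37.1 and 65.9, which take no account of the removal of duplicate tags. The folds there were 2.45, 2.96 and 2.05, a mean of 2.48 ± 0.454 (SD, n = 3), over an input background of 19.8, 16.2 and 22.9 scaled tags, which are input tags brought to the size of the IP library. With 50-base tags and at most 1 tag kept per position, tags of 1 strand cannot cover a base more than 50 times, and this region stood at or just under that number in every replicate. Whether that limit held its 3 pileups together was not tested, and their closeness is not read here as replicate agreement. Tags of both strands can exceed 50, and the recurrent regions of the series reached a mean pileup of 94.3.

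The other recurrent Camk2a region was the reverse, low in pileup and high in fold. It lay on chromosome 18 from 61127109 to 61127230 (mm9), with pileups of 10, 19 and 13 tags. The folds were 6.52, 9.33 and 8.54, a mean of 8.13 ± 1.45 (SD, n = 3), the highest among the 9 recurrent regions. Its input background was 0.687, 1.14 and 0.638 scaled tags, which is close to no input at all. The 3 summits fell within 6 bases of each other. In m6A IP 2 a second peak of 13 tags followed it, from 61127330 to 61127386, with a fold of 6.53.

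Near the 3′ side of Camk2a, 5 regions within 2737 bases were called in m6A IP 1 or 2 and none in m6A IP 3. They ran from 61144477 to 61147213 on chromosome 18 (mm9) and held 3 peaks of m6A IP 1 and 5 of m6A IP 2. Their pileups were 40 to 50 tags and their folds 1.87 to 2.30, among the lowest of the member peaks. The first 3 regions were found in both lists: the pileups were 40 and 40, 47 and 46, and 49 and 50 tags in m6A IP 1 and 2. Their backgrounds were 16.8 to 25.8 scaled tags. For a pileup of 50 to be called, the background had to lie below 28.5 tags in m6A IP 1 and 2 and below 28.1 in m6A IP 3. At fewer tags the limit is lower: the 40-tag peak of m6A IP 1, over 20.6 scaled tags, had a −log10 q of 1.55. The part of that limit in the absence of calls from m6A IP 3 was not tested. Leaving out m6A IP 3 raised the Camk2a regions found in all remaining lists to 5.

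The remaining Camk2a regions lay between these places. From 61108503 to 61108657 a region was found in m6A IP 2 and 3, with 16 and 12 tags and folds of 5.24 and 4.71. A peak of 12 tags and the same fold of 4.71 followed at 61108801 in m6A IP 3. Single peaks of m6A IP 2 at 61100946 and 61115203 reached 42 and 43 tags, at folds of 2.98 and 2.40. Camk2a thus held peaks with few tags over little input and peaks with many tags over much input, and its 20 peaks had a median pileup of 42.5 and a median fold of 2.42.

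Shank3, the postsynaptic scaffold, held the most recurrent regions, in a pair of stretches toward the 3′ side. The first stretch, of 1990 bases on chromosome 15 from 89378276 to 89380265 (mm9), held 4 regions, 3 of them found in all 3 replicates. The second, of 927 bases from 89388184 to 89389110, also held 4 regions, 1 of them found in all 3. The only other region in the window was a peak of 10 tags in m6A IP 3, 33.5 kb in. Gaps between neighbouring recurrent regions of the first stretch were 431 and 452 bases. Of the 9 recurrent member regions, these 3 had another recurrent region within 1000 bases, against 36.6% of the recurrent regions of the series.

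The strongest Shank3 region by fold lay in the second stretch, from 89388657 to 89388837. In m6A IP 1, 2 and 3 it had 44, 45 and 39 tags, and its folds were 8.06, 7.27 and 4.08, a mean of 6.47 ± 2.11 (SD, n = 3). The fold of m6A IP 3 was the lowest of the 3, over a background of 8.81 scaled tags, while m6A IP 1 and 2 had 4.58 and 5.32. The 3 summits lay within 5 bases. Its −log10 q was 23.0, 21.5 and 9.66, and the first 2 were the highest of any member peak. Around it, a weaker region from 89388184 to 89388274 had 14 and 17 tags in m6A IP 1 and 3 at folds of 2.69 and 3.33.

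In the first stretch, the region from 89378276 to 89378765 had pileups of 39, 43 and 35 tags and folds of 3.66, 6.14 and 4.47, a mean of 4.76 ± 1.26 (SD, n = 3). It was 1 peak of 490 bases in m6A IP 1 but a pair of peaks in m6A IP 2 and in m6A IP 3, whose summits were 302 and 317 bases apart. The summit of m6A IP 1, at 89378657, lay beside the downstream summits of the others, at 89378650 and 89378662. Upstream, m6A IP 2 and 3 had theirs at 89378348 and 89378345. Whether the region holds more than 1 enriched segment was not tested. The next region, from 89379197 to 89379328, had 34, 38 and 38 tags and the lowest mean fold of the 9, 2.35 ± 0.153 (SD, n = 3), with 2.50, 2.34 and 2.20 in m6A IP 1, 2 and 3. The last, from 89379781 to 89380265, had 45 tags in every replicate, with folds of 3.12, 2.76 and 2.36, a mean of 2.75 ± 0.382. The highest peaks of that region had summits within 8 bases, while m6A IP 1 had an additional peak of 33 tags, which gave the region its fold of 3.12; the 45-tag peak of m6A IP 1 had a fold of 2.38.

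**Figure D2:**
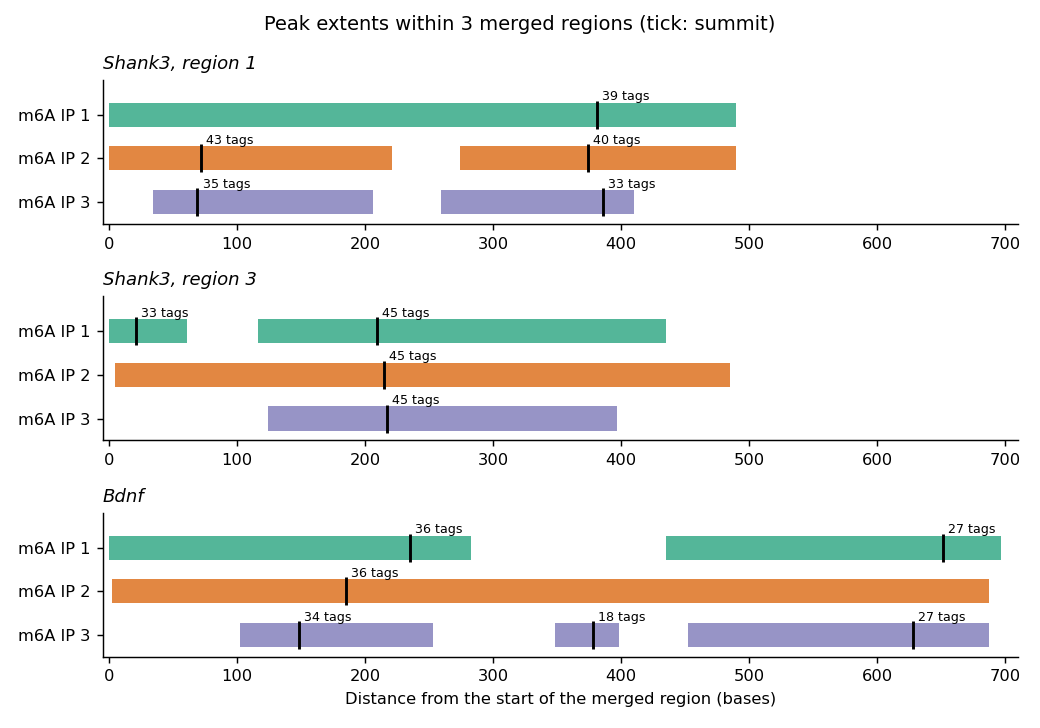
Extent of each peak (horizontal bars, bases from the start of the merged region) in m6A IP 1, 2 and 3 for a pair of recurrent Shank3 regions (numbers 1 and 3 from the 5′ side) and the recurrent Bdnf region, with a tick at each summit and its pileup in IP tags. One replicate in each panel spans with a single peak what another splits: m6A IP 1 in the top panel (490 bases), m6A IP 2 in the bottom panel (685 bases).

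Grin1, the NMDA receptor subunit, had its recurrent regions at both ends. Close to the 5′ side, on chromosome 2 from 25174290 to 25174589 (mm9), the pileup was 36, 40 and 30 tags. The folds were 4.29, 3.52 and 2.33 in m6A IP 1, 2 and 3, a mean of 3.38 ± 0.988 (SD, n = 3), over backgrounds of 7.63, 10.7 and 12.3 scaled tags. The lowest pileup, the lowest fold and the highest background were all in m6A IP 3. The summits of m6A IP 2 and 3 lay 3 bases apart, at 25174544 and 25174541, but that of m6A IP 1 was at 25174411.

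At the 3′ side, from 25147265 to 25147523, the pileup was 46, 46 and 45 tags and the folds were 2.76, 2.56 and 2.16, a mean of 2.49 ± 0.303 (SD, n = 3). Just beyond it, from 25147123 to 25147211, a region of 39 and 38 tags was found in m6A IP 1 and 2 at folds of 2.16 and 1.95. Another pair of peaks in the same 2 lists, from 25151161 to 25151231, had 23 and 24 tags and folds of 3.05 and 3.38. With m6A IP 3 left out, 4 Grin1 regions were found in the remaining lists, in place of 2. In GRCm38, an antisense gene, Grin1os, overlaps Grin1, and Lrrc26 is the neighbour on its 3′ side. The peaks carry no strand, so tags of such transcripts cannot be told apart from those of Grin1 here. Shank3 and Bdnf are likewise overlapped by Gm15609 and Gm45346 on the opposite strand, and Mir7220 and Mir6982 lie within Camk2a on its own strand.

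Bdnf, the neurotrophin, had 1 recurrent region and was otherwise nearly free of called peaks. On chromosome 2 from 109563591 to 109564287 (mm9), the longest of the 9 at 697 bases, the pileup was 36, 36 and 34 tags. The highest folds were 5.35, 6.12 and 7.74, a mean of 6.40 ± 1.22 (SD, n = 3), and the highest backgrounds 6.87, 5.04 and 3.92 scaled tags. Unlike the fold of Shank3's strongest region, that of Bdnf was highest in m6A IP 3. This was the only member region with a −log10 q of at least 10 in every replicate: the highest values were 11.1, 14.8 and 17.2. In all, 9 of the 63 member peaks reached that threshold, against 20.5% of the peaks of the series.

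The Bdnf region was 1 peak of 685 bases in m6A IP 2, a pair of peaks in m6A IP 1 and 3 peaks in m6A IP 3. In m6A IP 1 the upstream peak had 36 tags and a fold of 4.70, and the downstream peak 27 tags and a fold of 5.35. In m6A IP 3 the upstream and downstream peaks had 34 and 27 tags, with folds of 7.74 and 5.69, and a peak of 18 tags lay between them. The downstream summits, at 109564242 and 109564219, were 416 and 480 bases from the upstream ones. Without m6A IP 2 the place therefore counted as 2 recurrent regions, and with a reciprocal overlap of at least 50% as 0. Splits of this kind occurred in 3 of the 9 member regions, and 13.7% of the recurrent regions of the series had more than 1 peak in some replicate.

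The other Bdnf peaks were each found in 1 replicate and rested on very few tags. Close to the 5′ side, at 109515097 in m6A IP 1 and at 109516292 in m6A IP 2, the pileup was 3 tags, for which the exact Poisson interval is 0.619 to 8.77. Their folds of 3.47 and 3.41 were set against the genome-average backgrounds of 0.152 and 0.174 tags. A peak of m6A IP 2 at 109534242 had 5 tags. No peak near the alternative 5′ exons of Bdnf could be named as such, since exons were not placed. In whole-brain RNA, fewer cells that express a gene and less RNA per cell cannot be told apart, and this holds for every pileup and background given here.

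**Figure D3:**
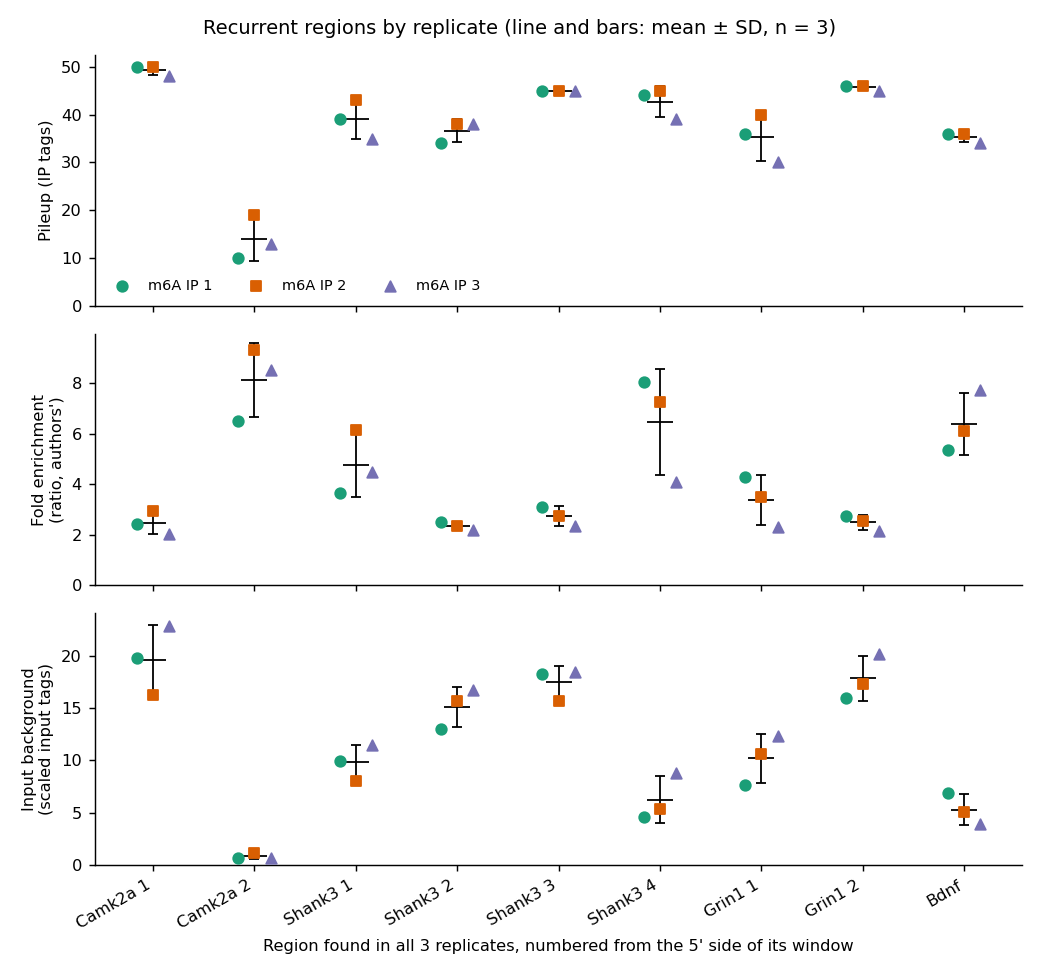
Pileup (IP tags), the authors' fold enrichment (ratio) and input background (scaled input tags) of the 9 recurrent regions in m6A IP 1, 2 and 3, with mean and SD (n = 3) in black, regions numbered from the 5′ side of each window. Pileups run from 10 to 19 in the low-input Camk2a region and from 30 to 40 in the 5′ Grin1 region, and folds vary most in the fourth Shank3 region, where they run between 4.08 and 8.06.

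Set in order by mean pileup, the highest recurrent regions of the 4 genes stood at 49.3 ± 1.15 tags in Camk2a, 45.7 ± 0.577 in Grin1, 45 in Shank3 in every replicate, and 35.3 ± 1.15 in Bdnf (SD, n = 3 each). Grin1 and Shank3, next to each other in that order, overlapped in their replicate values. Camk2a lay above them and Bdnf below them in each replicate, but the Poisson intervals of single pileups overlapped throughout, as 36 tags carry an interval of 25.2 to 49.8. Those intervals take no account of the removal of duplicate tags, so near 50 tags they are no full measure of the error. The mean folds of those same regions were 2.48 in Camk2a, 2.49 in Grin1 and 2.75 in Shank3, which differed by less than their spread between replicates. The Bdnf fold, at 6.40, lay above all of them in every replicate. Without the 1 that the authors' fold adds to both terms, the Bdnf mean became 7.72. No test was made of these orders, since the regions are parts of the same libraries and the replicates may be technical.

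Compared with the series, the member regions were high in pileup and low in fold. The median of the mean pileup was 39 tags over the 9 recurrent member regions, against 24 over the 16757 recurrent regions of the series. The median of the mean fold was 3.38 for the members and 5.13 for the series, and the median of the mean input background was 10.2 and 3.97 scaled tags. Of the 63 member peaks, 11 had a pileup of at least 46 tags, against 2.18% of the peaks of the series: 9 were in Camk2a and 2 in Grin1. A fold of at least 4 was reached by 23 of the 63 peaks, against 64.1% of the peaks of the series. By gene, that was 7 of 20 peaks in Camk2a, 7 of 21 in Shank3, 2 of 13 in Grin1 and 7 of 9 in Bdnf. By list, the median fold of member peaks was 2.76, 2.97 and 4.22 in m6A IP 1, 2 and 3, and that of all peaks was 4.78, 4.58 and 4.55. The gap in m6A IP 3 was thus smaller than in the other 2 lists. The high-pileup, low-fold peaks at the 3′ side of Camk2a were also absent from m6A IP 3. These are descriptions of 4 chosen genes, with no test.

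The low folds went with high input, which is the denominator of the fold. Duplicate tags were removed from IP and input alike, which limits how many tags of a strand can cover a base. At pileups near 50 tags this can limit the fold over a given background. The part of that limit in the low folds was not tested, and the folds are not read here as a measure of methylation. Some low folds were at fewer tags: the Shank3 region from 89379197 to 89379328 had 34, 38 and 38 tags and a mean fold of 2.35. Among recurrent regions of the series with a mean background of 14 to 24 tags, the median fold was 2.60, with quartiles of 2.35 and 2.88 (694 regions). There were 4 member regions in that range, at folds of 2.35 to 2.75: the 5′ one of Camk2a, the middle pair of Shank3, and the 3′ one of Grin1. The Shank3 region at 2.75 took its m6A IP 1 fold of 3.12 from a peak over 9.885 tags, below that range. With the fold of its highest-pileup peak in each replicate, its mean was 2.50. All 4 then lay below the series median of 2.60, which was itself taken from the highest folds. Between 4 and 8 tags the series had a median of 4.51 with an upper quartile of 5.27 (4955 regions). The means of the Bdnf region, 6.40, and of the last Shank3 region, 6.47, lay above that quartile, but not every replicate did. In Bdnf, the m6A IP 1 background of 6.87 came from a peak with a fold of 4.70. The Bdnf fold of 7.74 in m6A IP 3 had a background of 3.52 tags, below the range. The last Shank3 region had a fold of 4.08 over 8.81 tags in m6A IP 3, beyond the range. For backgrounds of 8 to 14 tags (2661 regions) the median was 3.35 and the upper quartile 3.82, and the 5′ Grin1 region, at 3.38, was next to the median. The first Shank3 region, at 4.76, fell in the same range, but its highest folds and backgrounds in m6A IP 2 and 3 came from different peaks. The peaks with its folds of 6.14 and 4.47 had backgrounds of 6.164 and 7.045 tags, between 4 and 8. Its place against the series therefore depends on which peak is used. The Camk2a region of lowest input, at 8.13, lay between the median of 7.07 and the upper quartile of 8.72 for backgrounds under 2 tags (4537 regions).

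**Figure D4:**
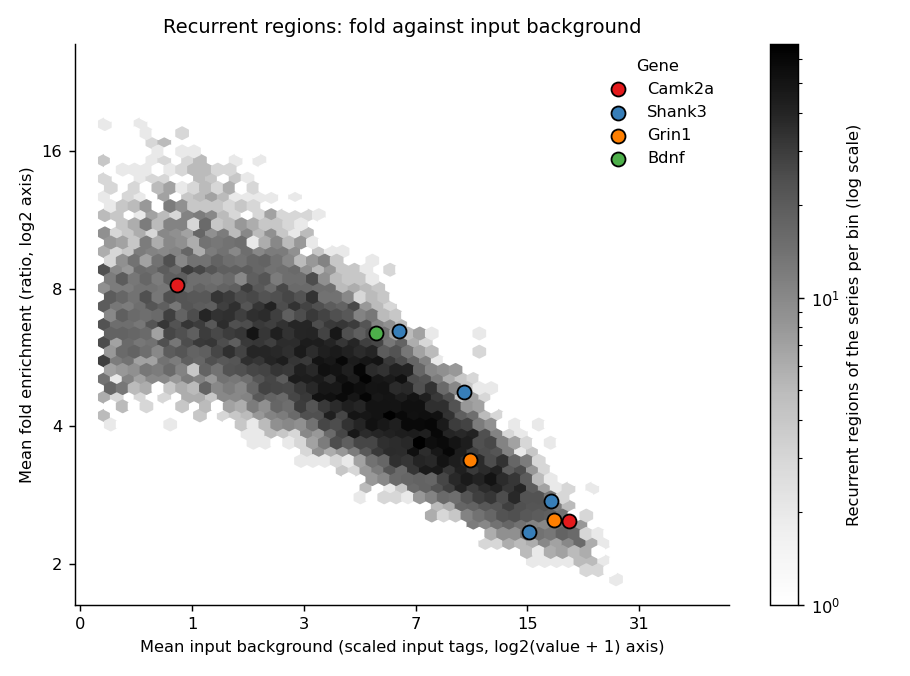
Mean fold enrichment (ratio, log2 axis) against mean input background (scaled input tags, log2 of value + 1) for the recurrent regions of the series (grey, darker for more regions) and the 9 member regions (coloured by gene). The members follow the falling band, with 4 of them at its high-input end and the Bdnf region and the last Shank3 region toward its upper edge. In a region with more than 1 peak in a replicate, fold and background can come from different peaks.

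Where each replicate had a single peak, the summits lay close together in all member regions but the 5′ Grin1 one. In the 6 member regions of that kind the summits spanned a median of 13 bases, and in 3 of the 6 they spanned at most 10. Over the 14466 such regions of the series the median was 20 bases, with quartiles of 7 and 53, and 33% spanned at most 10. The 2 tightest were the last Shank3 region, at 5 bases, and the low-input Camk2a region, at 6, and the widest was the 5′ Grin1 region, at 133. The fold was lowest in m6A IP 3 in 6 of the 9 recurrent member regions, against 48.0% of those of the series, and highest in m6A IP 3 in Bdnf. Between replicates, the median coefficient of variation over the recurrent member regions was 6.30% for pileup and 18.3% for fold, against 9.94% and 20.5% in the series. A mean pileup of at least 45 tags was reached by 33.3% of the recurrent member regions and 3.08% of those of the series. Near 50 tags, the removal of duplicates can hold pileups close together. The part of this in the lower variation in pileup was not tested, and that variation is not read here as better replicate agreement.

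The windows bounded the members without cutting a region. The outermost summits inside lay 407 to 3258 bases from the nearer end, apart from the first Shank3 summit, 27469 bases in. Just outside, a peak of m6A IP 2 with 9 tags lay 254 bases before the Shank3 window, and peaks of m6A IP 1 and 2 with 18 and 20 tags lay 2727 and 2713 bases beyond the 3′ side of the Grin1 window. None was found within 3000 bases outside the Camk2a and Bdnf windows.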

How the data were processed

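Peaks were called separately in each replicate, 1 IP against 1 input, with MACS 2.1.0.20151222 at a q-value cutoff of 0.05, per the file headers. The headers give an extension of 50 bases, at most 1 tag per position, the larger library scaled to the smaller, and local background over 1000 and 10000 bases. The submitters' processing notes name TopHat2 2.1.0, MACS2 2.1.0 and mm9. The authors deposited the pileup as a coverage signal, the fold as a ratio, and the strength of each peak on −log10 scales, of the p-value and of the q-value; other columns are positions.

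The input background was recovered here as (pileup + 1) / fold − 1; a Poisson p-value from it differed from the deposited −log10 p by at most 6.71e-05. The text names every region found in all 3 replicates. A region's fold, pileup and background are the highest among its peaks, taken separately. Members and lists were chosen with earlier results of these data known. Coordinates are 1-based on mm9. Gene names come from the windows and strand from GENCODE M21; no mm9 genome was at hand, so no sequence, motif or exon is reported and the planned list of other synaptic genes was not used. Merging was run on simulated lists with 1 peak per site in a list, so that run does not bear on regions split into several peaks. The tools were scipy 1.17.1, pandas 2.3.3, numpy 2.4.6 and matplotlib 3.10.9 under Python 3.11.15.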

Additional observations from a re-analysis of the deposited data

How the results depend on the processing

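Counts of regions found in all 3 replicates depended on the peak threshold. At a minimum −log10 q of 10 they were 0 in Camk2a, 0 in Shank3 and 0 in Grin1, against 2, 4 and 2, and with a fold of at least 4 they were 1, 1 and 0; Bdnf kept a count of 1 under both. With 2 of 3 replicates enough, Camk2a had 6, Shank3 5 and Grin1 4. Shank3 was thus not ahead of Camk2a under these settings, nor with m6A IP 3 left out, where Camk2a had 5 and Shank3 4. A reciprocal overlap of at least 50% left Bdnf with 0, since its peaks were split differently in each list. Leaving out 1 replicate gave 2 to 5 regions in Camk2a, 4 to 5 in Shank3, 2 to 4 in Grin1 and 1 to 2 in Bdnf. The other counts were within 1.5 times when peaks within 100 bases were merged, when any base in the window was enough, when windows were widened by 2000 bases and when lists were cut to equal length. The mean fold of each gene's highest region moved by less than its SD under every alternative run, except Bdnf without the added 1. No paired analysis was possible because the result comes from no test and the inputs have no file of their own.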
